A study of Mus musculus with 4 samples.

Results

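The genes described here are the 10 factors and inhibitors of the NF-κB system on a mouse expression array: the DNA-binding subunits Nfkb1, Nfkb2, Rel, Rela and Relb and the inhibitors Nfkbia, Nfkbib, Nfkbie, Nfkbiz and Tnfaip3. They were chosen by gene name, and 15 probes of the array carry one of these names, among 31982 gene names in all. The samples were NIH3T3 cells, an immortalised mouse fibroblast line, at steady state, with no treatment listed. One group expressed a deletion mutant of EGFR (2 arrays) and the other wild-type EGFR (2 arrays); EGFR is a receptor tyrosine kinase for epidermal growth factor. What was deleted, the species of the receptor, the promoter that drove it and whether the cells were clones or pools are not stated in the labels. The series' design text speaks of separate cDNA preparations and not of separate cultures, so the p-values rest on array-to-array spread that may be purely technical.

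NF-κB factors are dimers of Rel-family subunits that wait in the cytoplasm in the grip of IκB proteins. Signals from cytokine and pattern receptors activate the IκB kinase, the IκB is degraded, and the dimer enters the nucleus and binds κB sites. Several inhibitors and subunits are themselves transcribed from κB sites, so the system restrains and renews itself, and in fibroblasts it drives chemokines, Il6 and adhesion molecules. Much of this control acts on protein stability and location, which messenger RNA levels do not measure.

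RefSeq promoter windows (GRCm38.p6, 250 bases before to 50 after a start) were at hand for 7 of the 10 genes. They are shown because a κB site in the gene's own promoter is the textbook basis of this feedback. The consensus κB motif, searched on both strands, was matched in windows of 5 of these 7 genes (Nfkb2, Rel, Nfkbia, Nfkbie and Tnfaip3), whereas 9.55% of all 27025 genes with a window, and 8.46% of all 32851 windows, held it. The looser core GGGNNNNNCC, which includes the consensus, was matched for 6 of the 7 but also for 53.52% of all genes and in 50.79% of all windows. The 150 bases before the start follow for the genes with a consensus match there, 5′ to 3′ on the gene's strand, with consensus matches in capitals and overlapping matches joined:
Nfkbia (chr12:55492648-55492797, minus strand): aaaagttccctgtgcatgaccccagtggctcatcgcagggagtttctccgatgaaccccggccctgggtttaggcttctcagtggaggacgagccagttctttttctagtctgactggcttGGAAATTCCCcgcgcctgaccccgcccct
Nfkbie (chr17:45555550-45555699, plus strand): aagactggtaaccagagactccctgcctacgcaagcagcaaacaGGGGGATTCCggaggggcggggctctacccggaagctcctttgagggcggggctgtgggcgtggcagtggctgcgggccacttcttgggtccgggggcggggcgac
Tnfaip3 (chr10:19015411-19015560, minus strand): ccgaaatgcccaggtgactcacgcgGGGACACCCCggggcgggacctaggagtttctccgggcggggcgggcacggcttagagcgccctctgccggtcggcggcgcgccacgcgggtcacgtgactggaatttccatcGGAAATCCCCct
Nfkb2 (chr19:46304587-46304736, plus strand): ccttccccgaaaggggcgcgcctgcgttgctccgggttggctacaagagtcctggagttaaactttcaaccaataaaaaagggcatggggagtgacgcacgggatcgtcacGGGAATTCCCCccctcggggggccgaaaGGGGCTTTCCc
Rel (chr11:23770970-23771119, minus strand): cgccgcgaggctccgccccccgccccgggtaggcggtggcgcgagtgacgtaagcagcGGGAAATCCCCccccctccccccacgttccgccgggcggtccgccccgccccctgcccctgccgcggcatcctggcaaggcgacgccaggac

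Counted from the start site, the match of Nfkbia lay at -29 to -20, that of Nfkbie at -106 to -97 and the joined match of Rel at -92 to -82. Nfkb2 had matches at -39 to -29 and -11 to -2 of its first start, and Tnfaip3 had matches at -125 to -116 and -12 to -3 of its first start. The windows of Rela and Nfkbib held no consensus match, which says only that these letters are not there. A match is a string of letters and was not tested for binding.

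**Figure D1:**
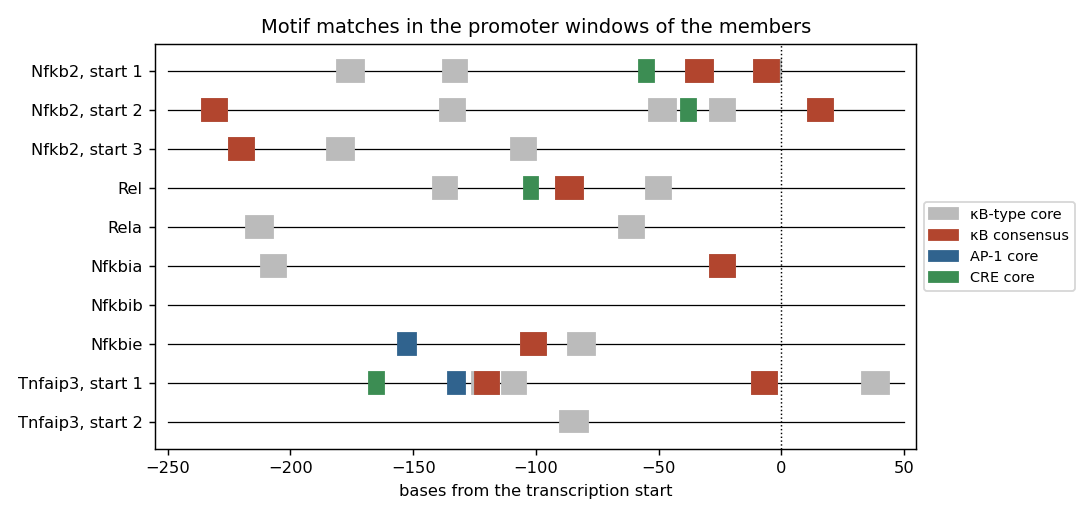
Motif matches (boxes) in the promoter windows of 7 member genes, plotted as bases from the transcription start (dotted line); Nfkb2 has 3 starts and Tnfaip3 has 2 in the table. Consensus κB matches (red) are seen for Nfkb2, Rel, Nfkbia, Nfkbie and Tnfaip3, and the looser core (grey) for Rela as well. AP-1 matches (blue, TGANTCA with C or G at N) are seen for Nfkbie and Tnfaip3, and CRE matches (green, TGACGN with C or T at N) for Nfkb2, Rel and Tnfaip3.

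The arrays carry probes of 60 bases. The probes of the best-known feedback inhibitor, Nfkbia, of Nfkbib, whose difference was the largest among the members, and of Nfkbiz, the member with a negative difference, are given 5′ to 3′ with the mm9 positions of the files:
Nfkbia (chr12:56590945-56591440): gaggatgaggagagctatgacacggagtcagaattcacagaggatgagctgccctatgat
Nfkbib, brighter probe (chr7:29544160-29544219): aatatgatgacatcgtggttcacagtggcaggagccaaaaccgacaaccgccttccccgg
Nfkbib, second probe (chr7:29545252-29546647): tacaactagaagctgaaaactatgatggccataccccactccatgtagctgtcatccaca
Nfkbiz (chr16:55817859-55817918): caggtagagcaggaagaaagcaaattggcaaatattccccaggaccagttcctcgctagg

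The Nfkbia probe spans 496 bases of the genome and the second Nfkbib probe 1396 bases, so both cross at least 1 intron. Which exon each probe reads was not analysed here.

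Between 42.9% and 43.8% of probes were well above background on the deletion-mutant arrays and between 45.3% and 46.9% on the wild-type arrays, with no saturated spot on any. All 4 arrays lay on 1 slide, with each group in a column of its own, so the column and the group cannot be told apart. The brightest mouse Egfr probe was at least 11.5-fold lower in deletion-mutant cells, where it was not well above background. Another Egfr probe was at least 2.22-fold lower there, and the remaining one was not well above background on any array. The introduced receptor may be of another species, so these probes check no label. All 8 fibroblast markers were well above background on every array, with a summed signal of 993 to 1020 times the 75th percentile in deletion-mutant and 1500 to 1567 times in wild-type arrays. All 8 passed a limma adjusted p of 0.05, as did 58.8% of all features. In deletion-mutant cells 7 were lower, such as Col1a1 (2.37-fold), and 1, Vim, was higher (1.17-fold). Ptprc, the pan-leukocyte marker, and 5 more of 10 leukocyte markers were well above background on no array. The other 4 leukocyte markers (Cd68, Cd3e, Itgam and Csf1r) were well above background on every array. Among them Itgam fell 1.89-fold (limma adjusted p = 0.0011), and Cd68, Cd3e and Csf1r did not pass. The summed signal of the leukocyte list was 22.3 to 22.4 times the 75th percentile in deletion-mutant arrays. In wild-type arrays it was 37.3 to 39.4 times. Most of both sums came from Itgam, and the part of the marker lists in the results was not tested. The epithelial marker Krt8 was well above background on no wild-type array and entered the test only through the deletion-mutant arrays. For its rise in those cells only a lower bound, 2.79-fold, is therefore given. The other 5 of the 6 epithelial markers were at background on all arrays. Of 6 endothelial markers 4 were at background, Pecam1 fell 1.32-fold and Kdr (-0.03) did not pass. The summed signal of the epithelial list was 0.361 to 0.467 times the 75th percentile in deletion-mutant and 0.153 to 0.198 times in wild-type arrays, and that of the endothelial list 6.60 to 6.75 times in deletion-mutant and 6.58 to 7.14 times in wild-type arrays. The arrays read bulk RNA, in which more cells with a transcript and more RNA per cell cannot be told apart.

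In deletion-mutant cells, 6 of the 9 measured members were higher than in wild-type cells, none was lower and none changed by 2-fold. The 6 were the subunits Nfkb1, Rela and Relb and the inhibitors Nfkbia, Nfkbib and Nfkbie, with rises between 1.14-fold and 1.41-fold. Nfkb2, Nfkbiz and Tnfaip3 did not pass the threshold, an adjusted p of 0.05 in limma over all 18093 features tested, where a feature is a gene by its brightest probe or an unnamed probe. This count has to be read against the whole array: 58.8% of all features passed in either direction, 34.6% as higher, 24.2% as lower, and 13.4% passed and changed at least 2-fold (5.94% higher and 7.46% lower). The median difference of the 9 members was 0.31 (log2), beside 0.07 for all features, and their median absolute difference was 0.35, beside 0.37. By absolute size the members' differences were close to those of the array at large.

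How many members passed depended on how the arrays were scaled. With each array scaled to its 75th percentile, 6 were higher and 0 lower; with median scaling the counts were 8 and 0, with scaling on E1A spike-in probes 7 and 0, with quantile normalization 3 and 0, and with the 75th percentile taken over probes detected on all 4 arrays 2 and 1. The median of all features moved by 0.18, 0.08, -0.06 and -0.19 (log2) under these 4 alternatives. Nfkbib and Nfkbie passed as higher under all 5. Set against the median of all features, the members' median was higher by 0.25 (log2) under the 4 scalings that move every difference alike and by 0.10 under quantile normalization. Leaving out replicate 1 of the wild-type arrays left 3 members past the threshold (Nfkbib, Nfkbie and Rela).

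**Figure D2:**
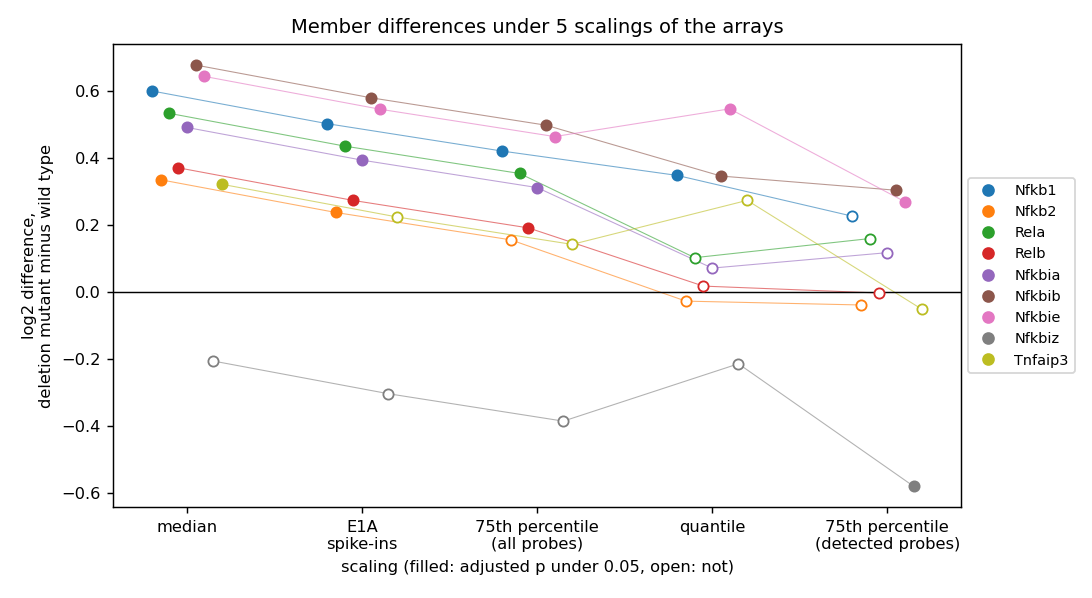
Log2 difference (deletion mutant minus wild type) of each measured member under 5 scalings of the arrays; filled points passed an adjusted p of 0.05 and open points did not. All 9 differences move together between the scalings by a constant and unequally under quantile normalization, and Nfkbib and Nfkbie stay filled throughout.

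Values are log2 signals relative to the array's 75th percentile, which lay between 327 and 366.5 intensity units, so 0 is the 75th percentile itself. They serve to compare a gene between arrays and not one gene with another, since probes differ in how brightly they report.

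Rela encodes the transactivating subunit of the main inducible dimer. It had 5.48 and 5.50 in deletion-mutant arrays, against 5.13 and 5.14 in wild-type arrays. The arrays of each group were nearly alike and the groups did not overlap. Rela rose 1.28-fold (log2 difference 0.35 ± 0.055 SE, limma adjusted p = 0.0072). The call was lost under quantile normalization (difference 0.10), with the detected-probe percentile (0.16) and with no filter on dim probes (adjusted p = 0.0684).

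Nfkb1 encodes the precursor of the subunit that pairs with Rela. Its brighter probe had 0.91 and 1.04 in deletion-mutant arrays, against 0.50 and 0.60 in wild-type arrays, a rise of 1.34-fold (0.42 ± 0.078, limma adjusted p = 0.0122). A second Nfkb1 probe had 0.66 and 0.64 in deletion-mutant arrays, against 0.23 and 0.08 in wild-type arrays. With every probe taken by itself, where 56.7% of 25162 probes passed, both did so (limma adjusted p = 0.0149 and 0.00861), so the probes of Nfkb1 gave the same direction and nearly the same size (0.42 and 0.50). The call was lost with the detected-probe percentile (difference 0.23), without replicate 1 of the wild-type arrays (adjusted p = 0.066) and with no filter on dim probes (adjusted p = 0.0794).

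Nfkb2 encodes the precursor protein of the noncanonical branch, which holds Relb back until it is processed. Its probe had 2.98 and 2.87 in deletion-mutant arrays, against 2.76 and 2.78 in wild-type arrays. The groups did not overlap, but the difference of 0.16 ± 0.066 SE (log2) did not pass (limma adjusted p = 0.108). Its 95% interval ran from -0.02 to 0.34 at this scaling. Nfkb2 passed as higher under median scaling (difference 0.34), E1A scaling (0.24) and limma-trend with robust variances (adjusted p = 0.0341). It also passed with the authors' values (0.34), which have the same median on every array and so nearly repeat median scaling. The difference of Nfkb2 was below 0 under quantile normalization (-0.03) and with the detected-probe percentile (-0.04).

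Relb encodes the subunit that works with the processed product of Nfkb2. Its brightest probe had 2.41 and 2.42 in deletion-mutant arrays, against 2.20 and 2.25 in wild-type arrays, and rose 1.14-fold (0.19 ± 0.057, limma adjusted p = 0.0453). This was the call closest to the threshold among the members. The other probes of Relb differed from it: one that shares 9 bases with the brightest had 1.38 and 1.40 in deletion-mutant arrays, against 1.33 and 1.45 in wild-type arrays, a difference of 0.0023. The third, 11277 bases away on the genome, had -2.35 and -1.84 in deletion-mutant arrays, against -1.42 and -1.80 in wild-type arrays (difference -0.49 ± 0.231 SE). With every probe by itself none of the 3 passed (limma adjusted p = 0.0547, 0.981 and 0.145), and the mean over the 3 was -0.10, so the rise of Relb rests on 1 probe. It was also lost under quantile normalization (difference 0.02), with the detected-probe percentile (-0.0026), with a replicate block (adjusted p = 0.0728), with no filter on dim probes (0.228) and when any 1 array was left out (adjusted p between 0.107 and 0.169).

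Rel encodes c-Rel, a subunit best known from lymphocytes. Its probe was at background throughout (not well above it on 4 of 4 arrays), with processed signals of 5.91 and 7.32 intensity units in deletion-mutant arrays, against 5.39 and 6.98 in wild-type arrays. It was not tested, and no fold is given. The position listed for it covers 15 of its 60 bases.

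**Figure D3:**
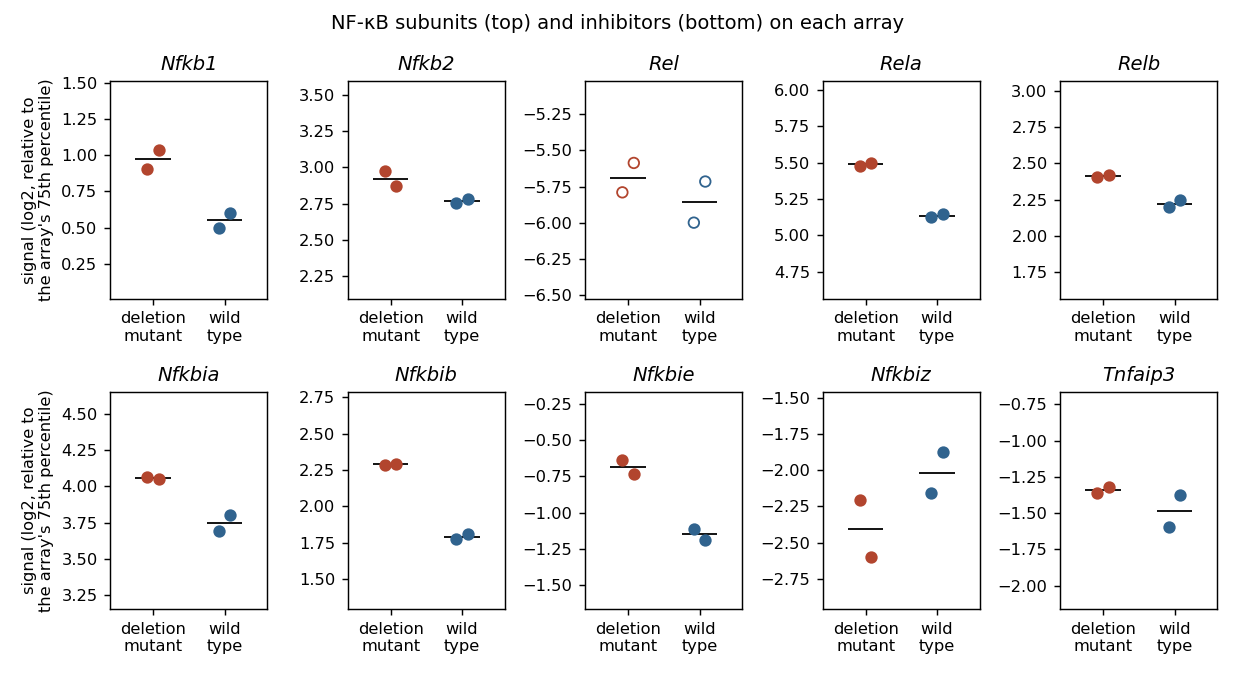
Signal of each member on each array (log2, relative to the array's 75th percentile), deletion mutant in red on the left of each panel and wild type in blue on the right, by the brightest probe; bars are means of 2 arrays and every panel spans 1.5 log2 units. Open points (Rel) were not well above background; in Rela, Nfkbib and Nfkbie the gap between groups is several times the gap within them, and in Nfkbiz the gap within a group is about as large as that between groups.

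Among the inhibitors, Nfkbia encodes IκBα, which is resynthesised after each activation and ends it. Its probe had 4.07 and 4.05 in deletion-mutant arrays, against 3.69 and 3.80 in wild-type arrays. Both deletion-mutant arrays lay above both wild-type arrays, and Nfkbia rose 1.24-fold (0.31 ± 0.066 SE, limma adjusted p = 0.0179). The call was lost under quantile normalization (difference 0.07) and under the detected-probe percentile (0.12), and also without either deletion-mutant array (adjusted p = 0.062 and 0.0534) or without replicate 1 of the wild-type arrays (0.0788) and with no filter on dim probes (0.113).

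Nfkbib encodes IκBβ, which also holds Rela-containing dimers. Its brighter probe, printed above, had 2.29 and 2.29 in deletion-mutant arrays, against 1.77 and 1.81 in wild-type arrays. Its rise of 1.41-fold was the largest difference among the members (0.50 ± 0.056 SE, limma adjusted p = 0.00297), and 62% of all features differed by less. The second probe had 0.80 and 0.88 in deletion-mutant arrays, against 0.21 and 0.17 in wild-type arrays, with a difference of 0.65 ± 0.065 (adjusted p = 0.00282 with every probe by itself). The third Nfkbib probe was at background throughout.

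Nfkbie encodes IκBε, an inhibitor that follows IκBα with a delay. Its probe had -0.64 and -0.73 in deletion-mutant arrays, against -1.11 and -1.19 in wild-type arrays. Nfkbie rose 1.38-fold (0.46 ± 0.069 SE, limma adjusted p = 0.00645), with a clear gap between the groups. The difference was 0.26 after normexp background correction and 0.27 with the detected-probe percentile, both past the threshold, and the call was lost with no filter on dim probes (adjusted p = 0.0545).

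Nfkbiz encodes IκBζ, a nuclear IκB-like protein that cooperates with NF-κB at secondary response genes such as Il6 and Lcn2. Its probe had -2.21 and -2.60 in deletion-mutant arrays, against -2.16 and -1.88 in wild-type arrays. At this scaling it was the only tested member with a negative difference (-0.39 ± 0.174 SE), and it did not pass (limma adjusted p = 0.127). The 95% interval of -0.86 to 0.09 is the widest among the members. Without replicate 1 of the deletion-mutant arrays the difference was -0.58 and passed (adjusted p = 0.0342), as it did with the detected-probe percentile (-0.58, adjusted p = 0.0428).

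Tnfaip3 encodes A20, a ubiquitin-editing enzyme that shuts off signalling upstream of the IκB kinase. Its probe had -1.36 and -1.32 in deletion-mutant arrays, against -1.60 and -1.37 in wild-type arrays. The lower deletion-mutant array lay just above the higher wild-type array, and the difference of 0.14 ± 0.096 SE did not pass (limma adjusted p = 0.265, 95% interval -0.12 to 0.40). Tnfaip3 passed as higher under median scaling (0.32, limma adjusted p = 0.0348). The authors' values, which nearly repeat that scaling, gave the same call (0.32, limma adjusted p = 0.034). The difference of Tnfaip3 was below 0 with the detected-probe percentile (-0.05).

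Counted by overlap alone, 8 members had both deletion-mutant arrays above both wild-type arrays and 1 had both below. Over all features the shares were 46.4% and 35.3%, or 81.7% in either direction. All 9 tested members were well above background on all 4 arrays, so none entered the test through 1 group.

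**Figure D4:**
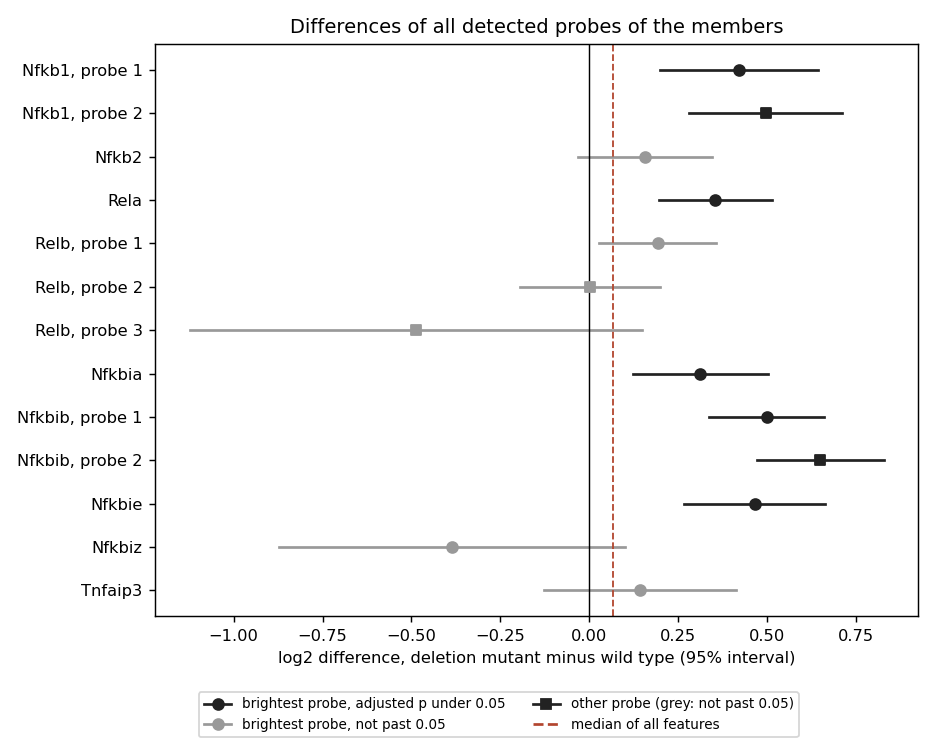
Log2 difference (deletion mutant minus wild type) with its 95% interval for the 13 detected probes of the members, each probe taken as a feature of its own. The dashed line marks 0.07, the median of all features with each gene by its brightest probe. With every probe a feature the median was 0.05. The probes of Nfkb1 and of Nfkbib lie together at 0.42 to 0.65, while the 3 probes of Relb spread from -0.49 to 0.19.

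Nfkbib, the member with the largest difference, was set beside the other named features well above background on all arrays, 15552 of them, by the Euclidean distance over the 4 arrays of values centred on each gene's mean. The nearest were Ddx46 (distance 0.0069), Scfd2 (0.0073), Map2k3 (0.015), Trub2 (0.016) and Ephb2 (0.017). A distance under 0.1 was found for 738 features, so with 4 arrays many genes share this pattern.

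The rest of the pathway was described by 7 lists, chosen, like the members, with earlier results of these data known. Their calls are again to be read beside 58.8% of all features, and calls of at least 2-fold beside 13.4%. Of 12 other IκB-like proteins and nuclear regulators, 7 were higher and 3 lower, or 5 and 3 with the detected-probe percentile. The nuclear cofactor Akirin2 rose 1.61-fold and the repressor Nkrf by 0.59 (log2). Bcl3, an IκB-like protein that binds the products of Nfkb1 and Nfkb2, fell 1.42-fold, Ing4 1.48-fold and Macrod1 1.57-fold. Nfkbid (-0.36), a nuclear IκB-like protein detected on 3 arrays, and Rps3 (-0.03) did not pass.

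Of 18 tested genes on a mixed list of IκB kinases, their activators, scaffolds and F-box proteins, 6 were higher and 5 lower, or 11 and 3 under median scaling and 3 and 7 with the detected-probe percentile. The IκB kinase itself, named here after its values were seen, did not pass for Chuk (0.18), Ikbkb (0.13) or its regulatory subunit Ikbkg (0.07). The kinase Map3k3 rose 1.69-fold, the TBK1 adaptor Azi2 1.53-fold and the F-box protein Fbxw11, which recognises phosphorylated IκB, 1.48-fold. Its close relative Btrc fell 1.72-fold, the scaffold Erc1 1.65-fold and the kinase Ikbke 1.46-fold. Among 26 tested adaptors and ubiquitin ligases, 8 were higher and 4 lower, or 14 and 4 under median scaling and 4 and 11 with the detected-probe percentile. Tirap (1.71-fold), Traf3 (1.66-fold) and Traf5 (log2 difference 0.68) rose. Peli2 (2.00-fold), Ticam1 (1.75-fold) and Irak4 (1.67-fold) fell.

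Of 14 tested brakes that act beside IκB and A20, 4 were higher and 4 lower, or 6 and 4 under median scaling and 4 and 5 with the detected-probe percentile. With only probes well above background on all 4 arrays, 5 of 13 were higher and 3 lower. Sigirr, a decoy-like receptor, rose 1.99-fold, Trib3 1.96-fold and Rnf11, a partner of A20, 1.67-fold. The A20-binding proteins Tnip1 (1.91-fold) and Tnip2 (1.62-fold) and the deubiquitinase Cyld (1.66-fold) fell, and Irak3, which was not well above background in deletion-mutant arrays, was at least 2.00-fold lower.

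Like each of the other lists, receptors and ligands included larger differences than any member showed. Of 16 tested receptors 6 were higher and 7 lower, or 7 and 6 under median scaling and 5 and 9 with the detected-probe percentile. With only probes well above background on all 4 arrays, 6 of 15 were higher and 6 lower. Tnfrsf12a, the receptor for TWEAK, rose 4.06-fold, Tnfrsf9 1.65-fold and Il1rl1, the receptor for IL-33, 1.61-fold. Fas (8.38-fold), Tlr2 (4.56-fold) and Il17rc (1.82-fold) fell. Tlr6, which was not well above background in deletion-mutant arrays, was at least 5.98-fold lower. The lymphotoxin receptor Ltbr (0.06), the TNF receptor Tnfrsf1a (-0.0099) and Tnfrsf11a (-0.09) did not pass. The ligands Tnf, Il1a and Il1b and 7 others of the 15 listed were not tested, as no probe was well above background on both arrays of a group. Among the 5 tested, 3 were higher and 1 lower, or 2 and 2 with the detected-probe percentile. The counts were also 2 and 2 after normexp background correction and with limma-trend. They were 2 and 2 of 4 with only probes well above background on all 4 arrays. Il33 (31.6-fold) and Tnfsf9 (2.42-fold) rose, Il18 fell 1.58-fold and Tnfsf12 (-0.28) did not pass. Lta was at least 1.31-fold higher, but it was not well above background in wild-type arrays and entered the test only through the deletion-mutant group.

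Target genes of NF-κB went both ways. Of 34 tested, 12 were higher and 14 lower, or 16 and 14 under median scaling and 10 and 16 with the detected-probe percentile. With only probes well above background on all 4 arrays, 13 of 30 were higher and 11 lower. At the first scaling and filter, 7 were higher and 12 lower by at least 2-fold, beside 5.94% and 7.46% of all features. The 12 include Il6, Cxcl1 and Cxcl5, which entered the test only through the wild-type arrays. The chemokine Ccl2 rose 6.92-fold, the cyclin Ccnd1 6.35-fold and the early-response gene Ier3 5.88-fold. The pentraxin Ptx3 fell 48.5-fold, the complement component C3 5.92-fold and Gadd45b 3.99-fold. Il6, a gene that IκBζ serves, was not well above background in deletion-mutant arrays and was at least 1.29-fold lower. Lcn2, another gene that IκBζ serves, was named here with its values known and did not pass (-0.32 ± 0.404 SE). Its probe was well above background on only 1 of the deletion-mutant arrays. Icam1, Cxcl2, Saa3 and 11 more of the 48 targets listed were not tested, as no probe was well above background on both arrays of a group. The median absolute difference of the tested targets was 1.08 (log2), beside 0.35 for the members and 0.37 for all features. The targets' median was -0.04. Since the targets were listed with earlier results of these data known, the size of their differences was not tested.

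**Figure D5:**
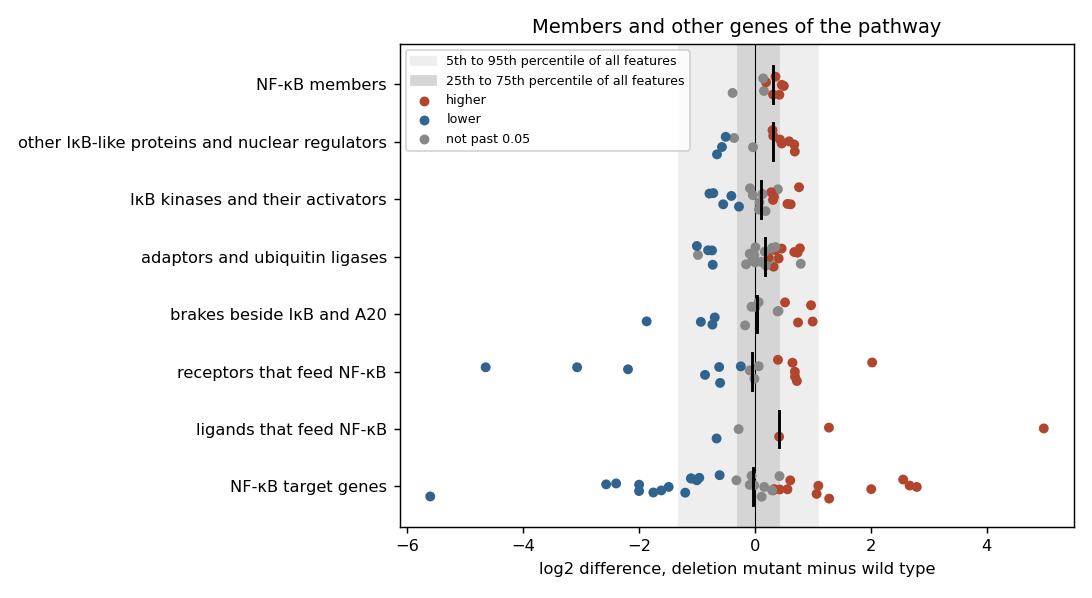
Log2 difference (deletion mutant minus wild type) of the members and of 7 lists of the pathway, 1 point per tested gene, red where higher, blue where lower and grey where not past an adjusted p of 0.05; black bars are medians, and the grey bands span the 25th to 75th and the 5th to 95th percentile of all features. The 9 members lie between -0.39 and 0.50, whereas the targets reach from -5.60 to 2.79 around a median of -0.04. Members and lists were chosen with earlier results of these data known.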

How the data were processed

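RNA of 4 samples was labelled with Cy3 and hybridised to 1-colour Agilent arrays, per the labels. The deposited text files give spot intensity after background subtraction and detrending, made with Feature Extraction 10.10.1.1 under protocol GE1_1010_Sep10, with mm9 positions, per the file headers. The authors' deposited matrix holds log2 values, which were the log2 processed signal plus a constant per array (within 0.01 for 100% of probes), with a median of 4.44 on each array.

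Control spots and outlier spots (116 to 142 per array) were left out, replicate spots were averaged on the log2 scale, and each array's 75th percentile was subtracted. Of 55681 probes, 25162 were kept: both arrays of 1 group or the other had to be well above background. A gene was represented by its brightest kept probe, which gave 18093 features. Groups were compared with limma 3.58.1 in R 4.3.3 (lmFit, eBayes, Benjamini and Hochberg). The total degrees of freedom were 4.18 and the median standard error 0.074 (log2), so the number of arrays limits the precision. "At least" folds set the bright group against the lowest signal well above background.

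Members were named in full. Of other lists, up to 3 genes per direction with the largest change, 1 bound per direction and, where 5 or fewer, those not past the threshold were named. One gene that this rule picks is not reported here. Members and lists were chosen with earlier results of these data known. Promoter sequences came from RefSeq (GRCm38.p6). Member probes matched RefSeq symbols by accession for 14 of 15. The procedure was tested on simulated data. Figures were drawn with Python 3.11.15 and matplotlib 3.10.9.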

Additional observations from a re-analysis of the deposited data

How the results depend on the processing

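Each result was recomputed under 16 alternatives: normexp background correction (offset 50), 4 other scalings, the authors' log2 values, no filter and a stricter filter, limma-trend with robust variances, the mean of the probes, each probe as a feature, a replicate block, and without each array. The authors' values nearly repeat median scaling, so these 2 alternatives are not separate checks. The 6 members past the threshold became 3 under quantile normalization, 3 under the percentile of the detected probes and 1 without a filter, where 34816 features were tested and 6465 passed in place of 10631. Without a filter, 5 IκB kinases and activators, 7 adaptors and 5 other IκB-like proteins passed in place of 11, 12 and 10. Leaving out 1 array gave 3 to 5 members, 6 to 10 kinases and activators (6 without replicate 2 of the wild-type arrays) and 7816 to 9565 features. Nfkbib passed under 16 of 16 alternatives and Nfkbie under 15. The difference turned for Nfkb2 under quantile normalization (-0.027) and the percentile of the detected probes (-0.038). It turned for Relb under that percentile (-0.0026) and the mean of the probes (-0.097), and for Tnfaip3 under that percentile (-0.052). That percentile moved every difference by -0.19 (log2), and the mean for Relb takes in its other probes. Why quantile normalization turned Nfkb2 was not tested. With the replicate block, 5 members passed, all but Relb (adjusted p = 0.0728), and 9988 features. Same-numbered arrays deviated together with a correlation of 0.047 across features, so the numbers were not taken as pairs. Signal over background limits Rel and 1 probe of Nfkbib.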
